A study of Mus musculus with 12 samples.

Results

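A group of 6 noncoding RNAs that work in the nucleus or as the RNA part of an enzyme was followed in mouse liver, namely Malat1, Neat1, Terc, Rmrp, Rpph1 and Rn7sk. They were chosen by name, as RNAs that become visible when a library is depleted of ribosomal RNA rather than selected for poly(A) tails, and they are 6 of the 52636 annotated genes in the count files. The RNA came from the left lateral liver lobe of 12 male C57Bl/6J mice sampled at 16 weeks of age, with 1 library per mouse. The VDD-F1 group (6 mice, VDD1 to VDD6) was born to dams fed a vitamin D deficient diet, with calcium gluconate added, from before mating until delivery. The VDS-F1 group (6 mice, VDS1 to VDS6) was born to dams on the nutrient-matched vitamin D sufficient diet over the same time. All dams received the sufficient diet after delivery and all offspring received it after weaning, so the groups differ in early exposure and not in the diet at sampling. Litters are not given for the sequenced mice, and the p-values treat each mouse as independent. A liver weight is on record for VDD4, VDD5, VDD6 and VDS3 through VDS6 (7 mice) and for none of the other 5. These sets of mice are compared below, and values within each set stand beside the pooled ones.

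Between 14275793 and 20815066 fragments were counted on genes in each library. The hepatocyte markers Alb, Apoa1, Ttr, Serpina1a, Apob and Cps1 were all measured in every library, with a summed level of 86262 to 116103 CPM (counts scaled to a common library size with TMM). VDS6 stood apart from the other libraries, with 11.1% of its fragments outside annotated exons and 9.88% of its counts on loci that overlap ribosomal RNA.

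The 6 RNAs fall into 3 kinds. Rn7sk, Rpph1 and Rmrp are short RNAs made by RNA polymerase III from promoters that lie outside the transcribed part. Rn7sk, the 7SK RNA, holds the elongation kinase P-TEFb inactive together with Hexim1 or Hexim2, Larp7 and Mepce. Rpph1 is the catalytic RNA of ribonuclease P, which trims the 5′ ends of transfer RNA precursors. Rmrp is the RNA of the related ribonuclease MRP, which acts on ribosomal RNA precursors, and it shares most of its protein subunits with ribonuclease P. Terc is the template RNA of telomerase and is made by RNA polymerase II. Malat1 and Neat1 are long nuclear RNAs made by RNA polymerase II from neighbouring genes. Malat1 gathers in nuclear speckles beside splicing factors, and Neat1 is the scaffold of paraspeckles. Malat1 and the long isoform of Neat1 have a 3′ end that is cut by ribonuclease P rather than polyadenylated, while the short isoform of Neat1 is polyadenylated. The cut leaves a small RNA resembling a transfer RNA.

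All 6 genes lie on the minus strand of GRCm38. The sequences below are transcript sequences of GENCODE M21 written as DNA, 5′ to 3′, and they are shown because they carry what a count of each RNA can and cannot separate. The start of Terc (chr3:96414710-96414859) holds the telomere template in capitals at bases 28 to 36.
Terc, first 150 bases: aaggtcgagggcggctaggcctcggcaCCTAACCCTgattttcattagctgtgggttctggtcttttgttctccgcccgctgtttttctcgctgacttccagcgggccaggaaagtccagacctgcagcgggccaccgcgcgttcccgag
The letters CCTAACCCT occur in 0.707% of 141767 annotated mouse transcripts (read on the transcript strand), so they are not particular to Terc. Terc has no 50-base window that occurs in the transcript of any other annotated gene, and its counts carry no shared sequence of that length.

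Rmrp (chr4:43492788-43493058) is 271 bases long. The capitals mark 124 bases, or 45.8% of the RNA, that lie opposite to an exon of Ccdc107, a protein-coding gene on the plus strand.
Rmrp: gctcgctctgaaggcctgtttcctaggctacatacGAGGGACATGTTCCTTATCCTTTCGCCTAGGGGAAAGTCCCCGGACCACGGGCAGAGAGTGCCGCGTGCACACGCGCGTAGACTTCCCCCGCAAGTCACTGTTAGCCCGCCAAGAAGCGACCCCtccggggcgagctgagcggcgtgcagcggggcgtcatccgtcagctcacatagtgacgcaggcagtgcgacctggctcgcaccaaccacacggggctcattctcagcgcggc
Rpph1 (chr14:50807449-50807767) is 319 bases long, with capitals over the 233 bases (73.0%) that lie in an exon of Ccnb1ip1 on the same strand in the M21 annotation. Its first 280 bases (chr14:50807488-50807767) are shown.
Rpph1, first 280 bases: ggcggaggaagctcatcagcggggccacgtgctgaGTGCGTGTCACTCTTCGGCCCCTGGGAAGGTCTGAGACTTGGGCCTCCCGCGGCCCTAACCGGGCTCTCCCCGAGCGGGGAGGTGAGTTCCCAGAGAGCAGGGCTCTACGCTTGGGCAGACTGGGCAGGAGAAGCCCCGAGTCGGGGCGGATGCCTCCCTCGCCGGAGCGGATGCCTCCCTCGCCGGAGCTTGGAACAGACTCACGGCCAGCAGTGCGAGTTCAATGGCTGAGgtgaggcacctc
Rmrp and Rpph1 had the same base in 51.8% of the columns of a global alignment, and the longest stretch they share exactly is 9 bases. A fragment of one is therefore not taken for the other.

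Rn7sk (chr9:78175303-78175633) is 331 bases long. Its start (chr9:78175524-78175633) holds 3 copies of GATC, in capitals, in the 5′ part of the RNA where Hexim1 binds.
Rn7sk, first 110 bases: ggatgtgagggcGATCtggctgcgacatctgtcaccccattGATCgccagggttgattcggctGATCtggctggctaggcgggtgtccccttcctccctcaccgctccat
For Rn7sk, 68.1% of its 282 windows of 50 bases also occur in 7 other annotated genes, and fragments placed equally well at several of them are not counted.

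Malat1 (chr19:5795690-5802672, 6983 bases) and Neat1 (chr19:5824708-5845478, 20771 bases) are 22035 bases apart. Their 3′ ends are shown because both carry the A-rich tract and matching runs before it. Each window of 120 bases ends in the A-rich tract, and capitals mark the exact runs of at least 10 bases that both windows hold in the same order (13, 16 and 11 bases).
Malat1, chr19:5795982-5796101: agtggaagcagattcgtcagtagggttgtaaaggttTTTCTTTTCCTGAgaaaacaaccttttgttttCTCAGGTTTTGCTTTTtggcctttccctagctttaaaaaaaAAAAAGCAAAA
Neat1, chr19:5824708-5824827: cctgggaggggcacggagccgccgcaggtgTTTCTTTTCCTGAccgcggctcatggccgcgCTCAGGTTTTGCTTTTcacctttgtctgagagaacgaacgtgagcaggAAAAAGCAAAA
The last of these runs, AAAAAGCAAAA, is found in 0.436% of annotated transcripts. A longer exact stretch of 29 bases shared by the full transcripts is not among these runs. The annotated Neat1 transcript ends with AAAAAGCAAAA, while the annotated Malat1 transcript runs on for 292 bases past it. Only 6.36% of the 50-base windows of Malat1 and 1.35% of those of Neat1 occur in other genes.

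The count of each RNA depends on the strand. STAR, the aligner the authors used, counts a fragment only where it overlaps exons of 1 gene, and here the count for the strand of the transcript was used. A count that ignores the strand kept 0.489% to 2.99% of the Rmrp count, since nearly every fragment of this short RNA then also overlaps the Ccdc107 exon. It kept 72.7% to 78.1% of the Malat1 count. Gm37376, annotated opposite to 453 bases of Malat1, had 0 to 15 counts on its own strand per library. Counted on the opposite strand, which is that of Malat1, its exon held 521 to 1797 per library. In every library these were fewer than the 834 to 3111 counts that Malat1 lost, and the rest of the loss was not traced. The other 4 RNAs kept at least 100% in every library. On the transcript strand itself, 4 small annotated genes nested in Malat1 and Neat1 (Gm27694, Gm27533, Gm27505 and Gm28006) were at 0 counts in all 12 libraries, and fragments there count for neither gene. Ccnb1ip1 was also at 0 in all libraries. Whether the annotation used by the authors already held its exon over Rpph1 is not given in the sources used here, so the Rpph1 count may hold only part of its fragments.

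The levels of the 6 RNAs spanned a wide range, and not all of them are abundant (plot of levels per length). Per kilobase of exon, Rn7sk was at 13714 ± 3030 CPM per kb (SD, n = 12 mice), the highest of the 6. Rpph1 was at 5665 ± 2579 CPM per kb and Rmrp at 2051 ± 728 CPM per kb. Malat1 was at 75.3 ± 22.4 CPM per kb, Terc at 8.70 ± 4.14 CPM per kb and Neat1 at 1.33 ± 0.653 CPM per kb. Rn7sk lay above Rpph1 and Rpph1 above Rmrp in 12 of 12 mice, although the ranges of these neighbours over all mice overlapped. Rmrp, Malat1, Terc and Neat1 followed each other with no overlap. Ranked by raw count without regard to length, Rn7sk was 26th, Rpph1 63rd, Rmrp 194th and Malat1 204th of all annotated genes, Neat1 was 4293rd and Terc 9624th. Terc rested on 18 to 128 counts per library. For the library with 18 counts (VDS6) the exact 95% Poisson interval was 10.7 to 28.4 counts, and for the library with 128 counts (VDD2) it was 107 to 152 counts, both for counting error only.

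**Figure D1:**
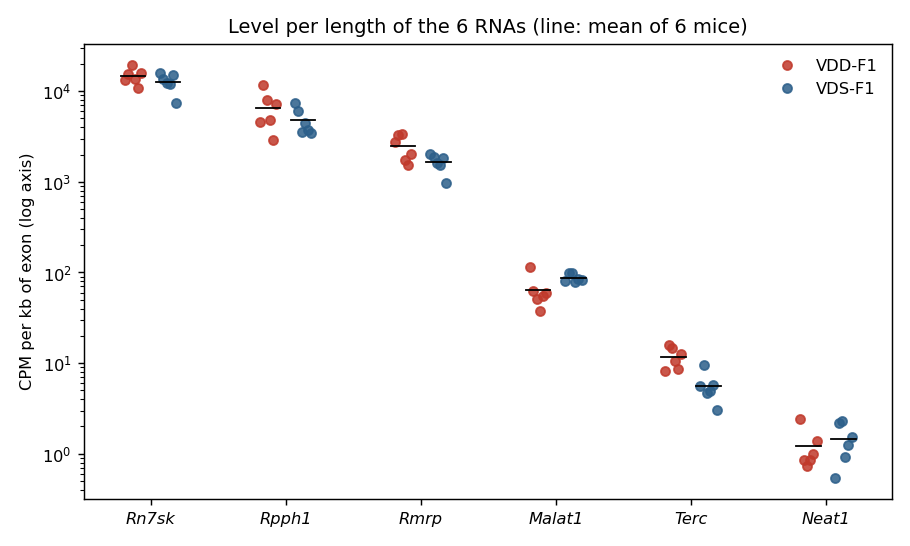
Level of each RNA per kilobase of exon (CPM per kb, log axis) in 6 VDD-F1 (red) and 6 VDS-F1 (blue) mice, with a line at each group's mean. Rn7sk, Rpph1 and Rmrp sit above Malat1, Terc and Neat1 in every mouse, and 5 of the 6 VDS-F1 points of Terc lie below its VDD-F1 points.

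The study asked whether vitamin D deficiency before birth alters the adult liver transcriptome. Terc was 2.09-fold higher and Malat1 was at 0.729 of its level in VDD-F1 compared with VDS-F1 mice, yet no member passed the test across all genes. With edgeR's quasi-likelihood test and Benjamini-Hochberg adjustment, 0 of the 6 RNAs had an adjusted p-value under 0.05, where 0.0402% of the 12453 genes tested did. At an unadjusted p-value under 0.05 stood 3 of the 6 (Terc, Rmrp and Malat1), against 15.8% of all genes. Terc and Rmrp were higher in VDD-F1, as 9.55% of all genes were at this level, and Malat1 was lower, as 6.29% were. Bulk RNA cannot tell apart fewer cells of a type and less RNA per cell.

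Terc had a lowest, median and highest level of 3.47, 4.91 and 6.68 CPM in VDD-F1 and of 1.29 (VDS6), 2.23 and 4.07 CPM in VDS-F1 mice. All 6 VDD-F1 mice lay above the median of VDS-F1, and 5 of the 6 VDS-F1 mice lay below the lowest VDD-F1 mouse (VDD1). The groups overlapped through VDS2 alone, the highest VDS-F1 mouse. The means were 4.98 ± 1.33 CPM and 2.37 ± 0.927 CPM (SD, n = 6 each). The log2-fold change was 1.06 (SE 0.26, 95% interval 0.51 to 1.62, edgeR adjusted p = 0.0918), which placed Terc 134th of all genes tested when ordered by p-value. DESeq2's Wald test called it (adjusted p = 0.00693), as it did 4.05% of genes, and so did limma's voom with sample weights (adjusted p = 0.0228), as it did 4.74% of genes.

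Malat1 had a lowest, median and highest level of 261, 404 and 794 CPM in VDD-F1 and of 541, 585 and 693 CPM in VDS-F1 mice. Of the VDD-F1 mice, 5 lay below every VDS-F1 mouse, while VDD1 lay above all 11 others. The means were 444 ± 183 CPM and 609 ± 64.6 CPM (SD, n = 6 each), with a log2-fold change of -0.46 (SE 0.20, 95% interval -0.89 to -0.02, edgeR adjusted p = 0.296). Without VDD1 the log2-fold change of Malat1 was -0.70 (edgeR adjusted p = 0.0165) and that of Terc was 1.15 (edgeR adjusted p = 0.0331), in a comparison where 420 genes or 3.37% of all passed, against 5 with all 12 mice. Within edgeR, each RNA was called without VDD1 and not on all 12 mice. The unadjusted edgeR p-value of Malat1 fell from 0.0424 to 0.000125 without VDD1, while that of Terc changed less, from 0.000994 to 0.000667. On all 12 mice, voom with sample weights called Malat1 (log2-fold change -0.66, adjusted p = 0.0462).

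Neat1, the paraspeckle scaffold, varied most of the 6 for its level, and the count does not separate its short and long isoforms. It ranged from 15.1 to 50.6 CPM in VDD-F1 (median 19.3) and from 11.2 to 47.8 CPM in VDS-F1 mice (median 28.8). The highest mouse was VDD1 and the lowest VDS1, so the extremes lay in opposite directions to the medians. The log2-fold change was -0.26 (SE 0.35, 95% interval -1.02 to 0.49, edgeR adjusted p = 0.765). The coefficient of variation over the 12 mice was 49.1% for Neat1, 47.6% for Terc, 45.5% for Rpph1, 35.5% for Rmrp, 29.7% for Malat1 and 22.1% for Rn7sk.

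Rmrp, the ribonuclease MRP RNA, ranged from 411 to 915 CPM in VDD-F1 (median 652) and from 261 to 555 CPM in VDS-F1 mice (median 469.8). VDD1, VDD2 and VDD3 lay above every VDS-F1 mouse, and VDS6 lay below all others. The log2-fold change was 0.57 (SE 0.22, 95% interval 0.11 to 1.04, edgeR adjusted p = 0.225). Rpph1, the ribonuclease P RNA, ranged from 919 to 3748 CPM in VDD-F1 (median 1924) and from 1111 (VDS6) to 2377 CPM in VDS-F1 mice (median 1294). Its highest mouse was VDD2 and its lowest VDD5, so VDD-F1 held both ends of the range. The log2-fold change was 0.46 (SE 0.30, 95% interval -0.18 to 1.10, edgeR adjusted p = 0.488).

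Rn7sk, the P-TEFb inhibitor RNA, was the least variable of the 6. It ranged from 3595 to 6487 CPM in VDD-F1 (median 4817) and from 2452 to 5222 CPM in VDS-F1 mice (median 4268). The 2 ranges overlapped over most of their length, with VDD3 highest and VDS6 lowest. The log2-fold change was 0.22 (SE 0.18, 95% interval -0.17 to 0.61, edgeR adjusted p = 0.594). For none of the 6 RNAs were the groups free of overlap in CPM, which was so for 1.18% of the genes tested.

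**Figure D2:**
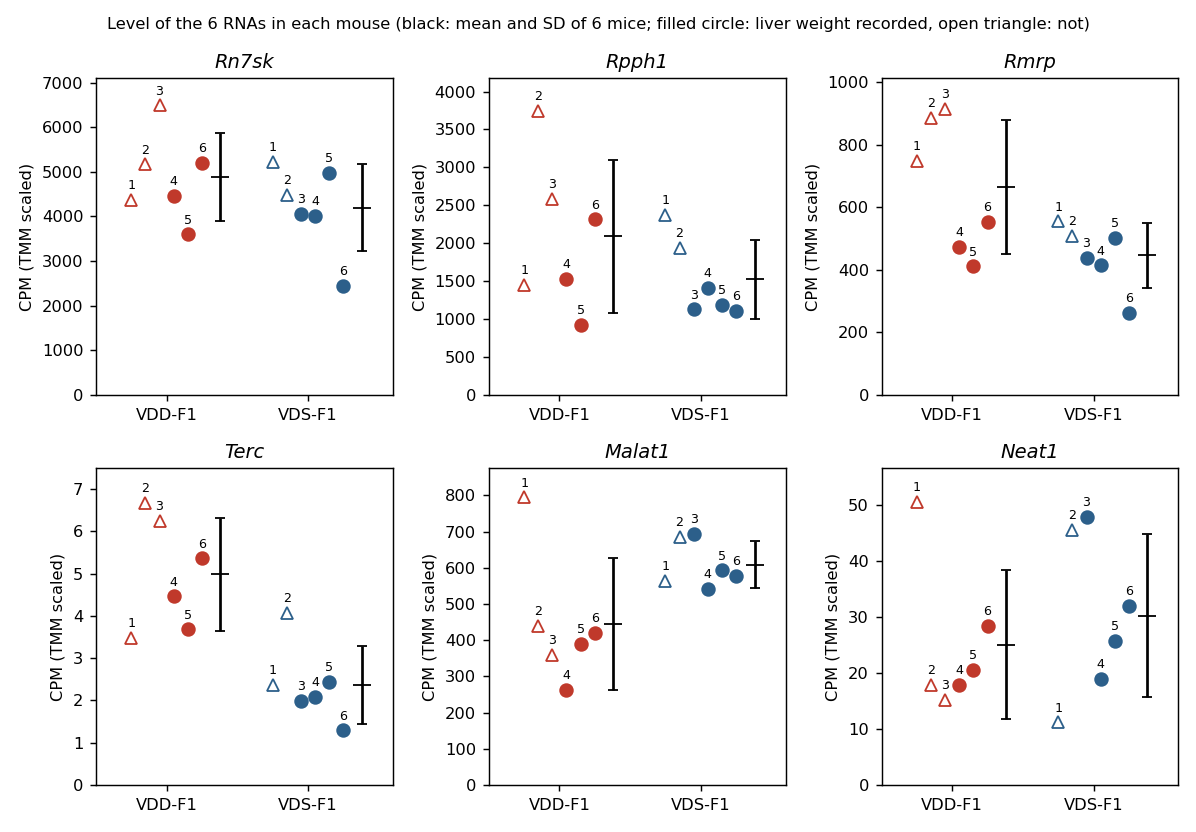
TMM-scaled CPM of each RNA in every mouse, with VDD-F1 in red and VDS-F1 in blue, mouse numbers above the points, filled circles for mice with a recorded liver weight, open triangles for mice without, and black marks for the mean and SD of 6 mice. Terc separates the groups apart from VDS2, and VDD1 is the VDD-F1 mouse with the highest Malat1 (794 CPM) and Neat1 (50.6 CPM).

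The size of the diet difference also depended on which mice were compared. Among the 7 mice with a recorded liver weight, Terc had a log2-fold change of 1.20 (SE 0.26, edgeR adjusted p = 0.0122) and Malat1 of -0.75 (SE 0.15, edgeR adjusted p = 0.00772). In this comparison 11% of all genes passed, so 2 of 6 RNAs stood beside a high background. Among the other 5 mice, Terc had a log2-fold change of 0.77 (SE 0.42) and Malat1 of -0.23 (SE 0.35), neither called by edgeR, which called 0 genes in these mice. Rmrp went the other way in size, with 0.25 (SE 0.18) in the 7 mice and 0.68 (SE 0.19) in the 5. The interaction of diet and set was not called for any of the 6 RNAs (unadjusted p from 0.169 to 0.883 by edgeR's quasi-likelihood test), where 0.0883% of all genes were, so a difference between the sets in the diet effect was not detected. All 4 short RNAs were higher in VDD-F1 and both long RNAs were lower in each of the 27 analyses run, at different sizes (plot of the diet difference by analysis).

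**Figure D3:**
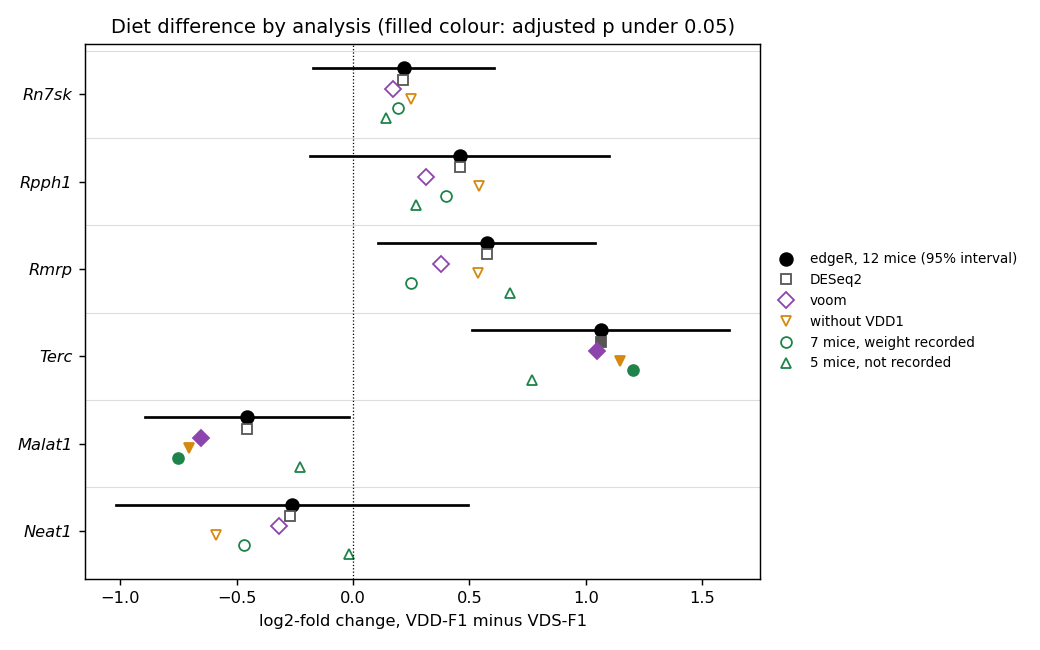
log2-fold change of each RNA between VDD-F1 and VDS-F1 by edgeR on 12 mice (black, with the 95% interval) and by 5 other analyses, filled where the adjusted p-value is under 0.05. Terc is filled in 4 of the 5 and Malat1 in 3 of the 5, and no symbol of the other RNAs is filled.

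Markers of other cell types differed alongside these values, counted here at an unadjusted p-value under 0.05, where 9.55% of all genes were higher in VDD-F1 and 6.29% lower. The 4 proliferation markers Mki67, Top2a, Cdk1 and Ccnb1 all had an unadjusted p-value under 0.05 and were higher in VDD-F1, and 0 of 4 passed edgeR's adjustment, while DESeq2 called Mki67 (adjusted p = 0.00935) and Ccnb1 (adjusted p = 0.0276). Their summed level was 6.78 to 66.2 CPM in VDD-F1, highest in VDD2, and 4.72 to 7.70 CPM in VDS-F1 mice, and none of them was at 0 in all libraries. Of 6 stellate cell markers, 3 were higher at an unadjusted p-value under 0.05, with a summed level of 284 to 849 CPM in VDD-F1 and 266 to 421 CPM in VDS-F1 mice, and DESeq2 called 2 of them, Col3a1 (adjusted p = 0.00755) and Col1a1 (adjusted p = 0.00825), whose edgeR adjusted p-values were 0.0855 and 0.0883. Of 5 cholangiocyte markers, 3 were higher at that level, with sums of 23.9 to 115 and 27.6 to 51.0 CPM. No stellate or cholangiocyte marker passed edgeR's adjustment, and DESeq2 called 0 of the 5 cholangiocyte markers. Of 6 endothelial markers 2 were lower and 1 was higher, and of 6 macrophage markers 1 was lower, with sums that overlapped between the groups. The 3 lymphocyte markers tested and the 6 hepatocyte markers held none at this level. VDD1 and VDD3 had the lowest proliferation sums of VDD-F1 (9.59 and 6.78 CPM), and there Terc was at 3.47 and 6.25 CPM. The part of these cell markers in the levels of Terc and Malat1 was not tested.

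The sets of mice differed in Rmrp. With diet in the model, mice with a recorded liver weight had less Rmrp than those without (log2-fold change -0.63, SE 0.15, edgeR adjusted p = 0.0489), and it was the only one of the 6 RNAs past the threshold, against 2.46% of all genes in either direction and 1.56% in this one. Rmrp was at 436 ± 92.7 CPM (SD, n = 7) with and at 723 ± 185 CPM (SD, n = 5) without a recorded weight, and 6 of the 7 mice lay below the lowest of the 5. The edgeR call stood close to the threshold. It was lost when any of 10 of the 12 mice was left out (adjusted p up to 0.135) or when libraries were scaled by total counts alone (adjusted p = 0.0831). DESeq2 also called Rmrp (adjusted p = 0.00257), as it did 4.67% of all genes. Rpph1 had a larger difference with a larger error (-0.77, SE 0.23, edgeR adjusted p = 0.116, and DESeq2 adjusted p = 0.0168 where DESeq2 called 4.67% of all genes), from 2418 ± 861 CPM in the 5 mice to 1370.4 ± 462 CPM in the 7 mice. Terc (-0.48, adjusted p = 0.397), Malat1 (-0.33, adjusted p = 0.500), Rn7sk (-0.30, adjusted p = 0.477) and Neat1 (-0.11, adjusted p = 0.942) were not called by edgeR. What else separates the sets, such as litter or day of collection, cannot be told apart from them.

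The 4 short RNAs varied together from mouse to mouse (plot of deviations). Of the 15 pairs among the 6 RNAs, 6 passed at an adjusted p-value under 0.05 by Pearson's r of log2 CPM over 12 mice, and these were the 6 pairs among Rn7sk, Rpph1, Rmrp and Terc. Over all 77532378 pairs of the genes tested, 2.04% had an r at least as high as the lowest of these 6. The r of the 6 pairs ranged from 0.678 to 0.854 (permutation test with 100000 resamples, two-sided, adjusted p from 0.00870 to 0.0413). Spearman's rho ranged from 0.622 to 0.874, with 4 of the 6 pairs passing (permutation test, adjusted p from 0.00367 to 0.0730). Rmrp and Rn7sk had the highest r of 0.854 (permutation p = 0.000580, adjusted p = 0.00870) and a rho of 0.853 (permutation p = 0.000770, adjusted p = 0.00385). Within VDD-F1 the 6 pairs had r from 0.600 to 0.918 (n = 6 mice), within VDS-F1 from 0.570 to 0.989 (n = 6) and among the 7 mice with a recorded weight from 0.546 to 0.989. The other 5 mice are too few for a value.

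These relations rested in part on a few mice. With the 2 mice farthest from the median of the first RNA of a pair left out, r was 0.485 to 0.727 over 10 mice and 0 of the 6 pairs passed (permutation test, adjusted p from 0.242 to 0.327). Without VDS6, the pairs among Rmrp, Rpph1 and Rn7sk passed and the 3 pairs with Terc did not, at r = 0.674 with Rmrp, 0.647 with Rpph1 and 0.515 with Rn7sk over 11 mice (permutation test, adjusted p from 0.0934 to 0.196). VDS6 was the lowest mouse for Rn7sk, Rmrp and Terc, with log2 deviations from the mean of -0.85, -1.01 and -1.28. VDD2 and VDD3 were the 2 highest for Rpph1, Rmrp and Terc. All values of a mouse come from 1 library and share its depth and scaling.

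**Figure D4:**
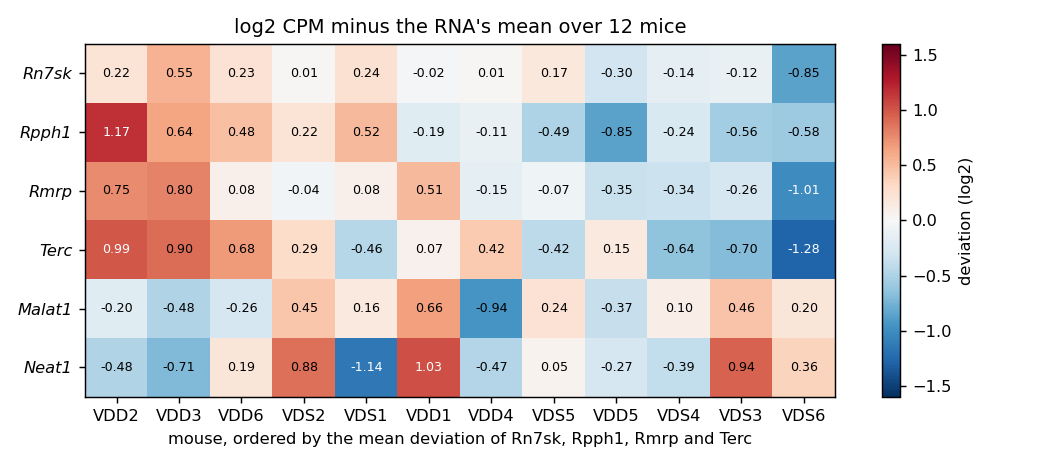
log2 CPM of each RNA minus its mean over 12 mice (rows are RNAs, columns are mice ordered by the mean deviation of the 4 short RNAs, red above and blue below the mean). VDD2 and VDD3 are high and VDS6 is low for the short RNAs, while Malat1 and Neat1 follow another order, with VDD1 highest in both.

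Malat1 and Neat1 had r = 0.643 (permutation p = 0.0244, adjusted p = 0.0523) and rho = 0.720 (permutation p = 0.0109, adjusted p = 0.0380) over the 12 mice. Within each diet r was higher, at 0.846 in VDD-F1 and 0.827 in VDS-F1 (n = 6 each), and without VDD3 and VDD4 it was 0.622. The value within VDD-F1 includes VDD1, which lay far above the other VDD-F1 mice for both RNAs (794 and 50.6 CPM). The relation without VDD1 was not calculated. With libraries scaled by total counts alone the pair passed (r = 0.652, permutation test, adjusted p = 0.0456). The pairs of a long and a short RNA had r from -0.530 (Malat1 and Terc, permutation p = 0.0757, adjusted p = 0.142) to -0.125 (Malat1 and Rmrp). Malat1 and Terc had r = -0.357 within VDD-F1 and 0.457 within VDS-F1, so the negative relation over all mice was not present in each diet.

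Between 1.98 and 6.91 Neat1 fragments were counted per 100 Malat1 fragments. The mean log2 ratio of 6 VDD-F1 mice was -4.19 (SD 0.34), that of 6 VDS-F1 mice -4.49 (SD 0.68), and the difference of 0.30 had p = 0.390 in a two-sided exact permutation test. The smallest p-value this design can give is 0.00216. The lowest ratio was that of VDS1, and without it the difference was 0.07. The 6 RNAs together took 0.825% ± 0.220 of all counts in the VDD-F1 group and 0.671% ± 0.147 in the VDS-F1 group (SD over 6 mice, p = 0.195 by the same exact test). The difference of 0.154 percentage points was 0.0848 without VDD2 and 0.102 without VDS6. The share was highest in VDD2 (1.17%) and lowest in VDS6 (0.413%), and Rn7sk and Rpph1 made up most of it.

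No relation of the 6 RNAs to 4 measures of library quality passed over 24 tests. The closest was that of Rpph1 to the share of fragments that mapped to several places (r = 0.782, permutation p = 0.00295, adjusted p = 0.0708, rho = 0.727, permutation p = 0.00986, adjusted p = 0.237, n = 12), with r = 0.812 when VDD6 and VDS5 were left out, 0.771 within VDD-F1 and 0.706 within VDS-F1. Rn7sk and the share of fragments outside exons had r = -0.729 (permutation p = 0.0368, adjusted p = 0.288) and rho = -0.476 (permutation p = 0.123, adjusted p = 0.455). It was -0.912 within VDS-F1, where VDS6 is the extreme mouse, and -0.104 within VDD-F1. With VDD3 and VDS6 left out, r was -0.624 over 10 mice.

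None of the proteins that work with these RNAs passed the test. In 7 lists with 71 genes, 70 were tested and 0 passed with edgeR or with DESeq2, while 3 had an unadjusted p-value under 0.05, all 3 lower in VDD-F1, beside 15.8% of all genes in either direction and 6.29% lower. The medians of the lists lay between -0.11 and 0.06 on the log2 scale, beside a median of 0.00 over all genes tested. Among the 7 genes of the 7SK particle and P-TEFb, Ccnt1, a cyclin of P-TEFb, was at 32.0 ± 4.45 CPM in VDD-F1 and 38.5 ± 5.62 CPM in VDS-F1 mice (log2-fold change -0.27, SE 0.12, unadjusted p = 0.0374 and adjusted p = 0.284 by edgeR), and Hexim1 had a log2-fold change of -0.18 (adjusted p = 0.515). Of 10 tested proteins of ribonucleases P and MRP, the smallest p-values were those of Rpp40 (log2-fold change 0.39, adjusted p = 0.417) and Rpp25l (0.18, adjusted p = 0.500).

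Tert, the reverse transcriptase that uses Terc as its template, was at 3.94 ± 0.964 CPM in VDD-F1 and 5.27 ± 1.07 CPM in VDS-F1 mice (log2-fold change -0.42, SE 0.19, unadjusted p = 0.0479 and adjusted p = 0.310 by edgeR). The direction was opposite to that of Terc, and neither passed. Nhp2, a protein of the H/ACA particle that Terc forms, had a log2-fold change of 0.16 (adjusted p = 0.512), and 6 of the 8 telomerase genes were above 0.

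Among speckle and splicing proteins, Srrm2, a core protein of nuclear speckles, was at 265 ± 34.1 CPM in VDD-F1 and 329 ± 31.8 CPM in VDS-F1 mice (log2-fold change -0.31, SE 0.10, unadjusted p = 0.00838 and adjusted p = 0.163 by edgeR). Of the 70 genes tested, 1 was called by voom, where 4.74% of all genes were called, and 1 in the 7 mice with a recorded weight, where 11% were. Both times this was Srrm2 (voom adjusted p = 0.0260, and log2-fold change -0.47 with edgeR adjusted p = 0.00502 in the 7 mice). Srrm1 had a log2-fold change of -0.21 (adjusted p = 0.350). Of the 9 paraspeckle proteins, Sfpq (-0.20, adjusted p = 0.389) and Cpsf6 (-0.11, adjusted p = 0.712) had the smallest p-values. Of 22 genes for RNA polymerase III and its promoter factors, 7 were above 0, and Polr3a, its largest subunit, had a log2-fold change of -0.21 (adjusted p = 0.381) and Crcp of -0.31 (adjusted p = 0.434). Of the 4 genes that process the small 3′ product of Malat1 or bind its end, Mettl16 was at -0.16 (adjusted p = 0.643) and Elac2 at -0.11 (adjusted p = 0.678).

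Other noncoding RNAs gave no call. Of 19 listed, 10 were tested and none had an unadjusted p-value under 0.05. Kcnq1ot1, a long RNA of an imprinted locus, had a log2-fold change of -0.44 (SE 0.21, edgeR adjusted p = 0.321). Rn7s1, a gene for the RNA of the signal recognition particle, had a log2-fold change of 0.65 (SE 0.35, edgeR adjusted p = 0.389), where near-identical copies make its count uncertain. A further list held loci that overlap ribosomal RNA and the mitochondrial ribosomal RNA genes mt-Rnr1 and mt-Rnr2. Its 4 tested genes had a median of -0.73 with no call, mt-Rnr1 (-1.27, edgeR adjusted p = 0.541) and mt-Rnr2 (-0.91, edgeR adjusted p = 0.685) among them. Their summed level of 25058 to 81081 CPM in VDD-F1 and 32859 to 110938 CPM in VDS-F1 mice overlapped between the groups.

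The genes most like each RNA over the 12 libraries were named by the highest Pearson r of log2 CPM, as a description with no test. For Terc these were Rpa3 (r = 0.955), a subunit of the single-stranded DNA binding protein RPA at only 2.10 CPM, and Hexa (r = 0.938), a lysosomal enzyme. For Rpph1 they were Rps14 (r = 0.955) and Rps9 (r = 0.913), both proteins of the small ribosomal subunit. For Rmrp they were Pdcd6 (r = 0.917) and Cgref1 (r = 0.900), and for Rn7sk Chmp1a (r = 0.903) and Seh1l (r = 0.885). For Neat1 they were Josd2 (r = 0.934) and Pgm5 (r = 0.931). For Malat1 they were Gm37729 (r = 0.925), a transcript annotated as still to be tested by experiment, at 0.993 CPM, and the pseudogene Cyp2d37-ps (r = 0.914). Among 12453 genes high values arise by the number of genes searched, and the points share 12 libraries.

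Counts on the strand opposite to each RNA were few and differed between libraries (plot of the opposite strand). For Rn7sk they were 10 (VDS6) to 557 per library, or 0.0198% to 0.808% of its counts on both strands, and for Rpph1 27 (VDS6) to 348, or 0.110% to 1.95%. VDD5 was highest for Rn7sk, Rpph1, Rmrp and Malat1, and VDD4 and VDD1 came next for these 4 RNAs. The same 3 libraries stood highest for the 6 hepatocyte markers, with 1.13% of their counts on the opposite strand in VDD5, 0.431% in VDD1, 0.384% in VDD4 and at most 0.184% in the other 9 libraries. Averaged over 6 mice, the marker share was 0.381% (SD 0.397) for VDD-F1 and 0.0960% (SD 0.0509) for VDS-F1, with p = 0.0563 in a two-sided exact permutation test. Neat1 had at most 5 and Terc at most 3 opposite-strand counts in a library.

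**Figure D5:**
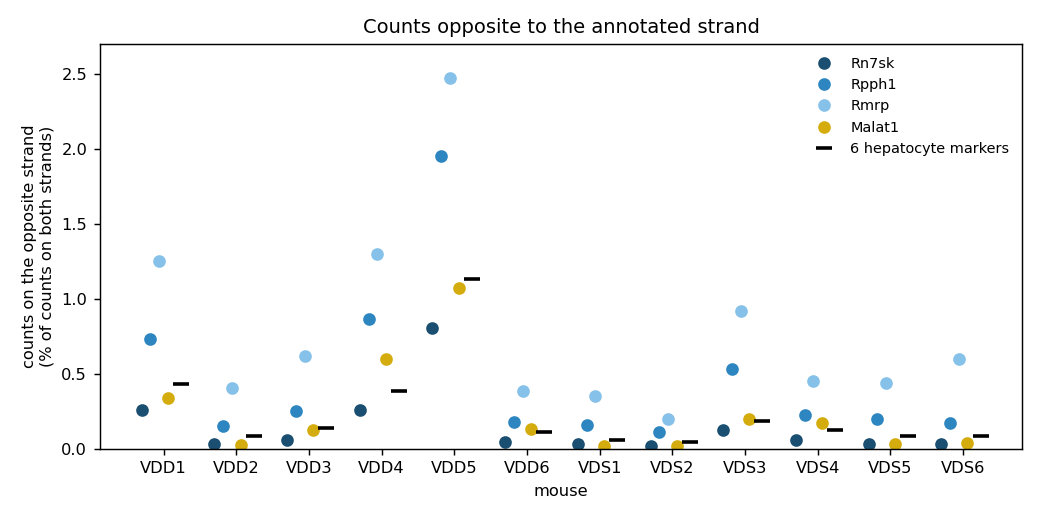
Counts on the strand opposite to the annotated one, as a percentage of the counts on both strands, for 4 of the RNAs and for the sum of 6 hepatocyte markers in each mouse. VDD5, VDD4 and VDD1 stand above the other libraries for every symbol, with Rmrp at 2.47% and the markers at 1.13% in VDD5.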

How the data were processed

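Liver RNA of 6 VDD-F1 and 6 VDS-F1 males was sequenced after depletion of ribosomal RNA (KAPA RNA HyperPrep with RiboErase), 1 library per mouse. After trimming, the authors ran STAR on mm10 with GENCODE M15 and deposited raw counts per gene, without normalization, for each strand and without regard to strand. Of 52636 genes, 52403 were matched to GENCODE M21 on GRCm38, from which positions, lengths and sequences were taken. The reverse-strand count was used.

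The minimum was a mean count of 12, and the genes above it were tested with edgeR 4.0.16 (TMM, quasi-likelihood, R 4.3.3), with Benjamini-Hochberg adjustment over all 12453 genes. The threshold was an adjusted p of 0.05, and a DEG also had a log2-fold change beyond 1. DESeq2 1.42.0, which the paper's methods name, voom in limma 3.58.1, other scalings and filters, the strand-blind count, the sets of mice, a replicate block and leaving out each mouse were alternatives. Log2 CPM used a prior count of 2. Other statistics used SciPy 1.17.1 and sequences Biopython 1.88. In simulated counts for this comparison over 12345 genes, 170 of 200 genes changed by 1.5 on the log2 scale were recovered, with 7 false calls. The smallest p-value of the permuted correlations is 1e-05.

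Named were the 6 RNAs, from each list the genes past the adjusted threshold (at most 5) or in any case the 2 with the smallest p-values, and the 2 genes most like each RNA. The members and lists were chosen with earlier results of these data known. Replicate numbers mark different mice. The sets come from the liver weights given with the study's liver sections.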

Additional observations from a re-analysis of the deposited data

Results flagged for a closer look

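Within VDD-F1, VDD1 lay far from the other 5 mice for Malat1, at 794 CPM where the others were at 261 to 439 CPM. The same mouse lay far from the others for Neat1, at 50.6 CPM where the others were at 15.1 to 28.4 CPM. These were 2 of the 16 groups of values examined for a distant sample, and about 1 in 20 such groups is marked by chance.

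Counts on the strand opposite to the RNA, which are not part of the levels above, had a mean share in VDD-F1 above that of every VDS-F1 mouse for 4 of the 6 RNAs. For Malat1 the mean share was 0.382% in VDD-F1 and at most 0.198% in a VDS-F1 mouse. For Rmrp it was 1.07% against at most 0.918%, for Rpph1 0.689% against at most 0.534%, and for Rn7sk 0.243% against at most 0.123%. For Neat1 the mean was 0.297% against at most 0.446%, and for Terc 1.26% against at most 3.33%, on 0 to 5 such counts per library. The VDD-F1 means of the first 4 RNAs were carried by VDD1, VDD4 and VDD5, and the hepatocyte markers had their highest opposite-strand shares in the same libraries. The part of these counts in the levels on the transcript strand was not tested.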

How the results depend on the processing

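The directions of the 6 RNAs between the diets were kept in all 27 analyses, and the calls were not. Terc was called by DESeq2 (1.06, adjusted p = 0.00693), voom (1.05) and in the 7 mice with a recorded weight (1.20), and Malat1 by voom (-0.66) and in those 7 mice (-0.75). With 1 mouse left out, the log2-fold change ranged from 0.94 to 1.29 for Terc and from -0.70 to -0.34 for Malat1, and each was called only without VDD1, where 420 of 12464 genes passed. The other 4 RNAs were not called with any mouse left out, and ranged for Rpph1 from 0.21 (without VDD2) to 0.63 (without VDS1), for Rn7sk from 0.10 (without VDS6) to 0.29, for Neat1 from -0.59 (without VDD1) to -0.08 (without VDS3) and for Rmrp from 0.46 to 0.68. Between the sets of mice, Rmrp was called by DESeq2 (-0.63, adjusted p = 0.00257) and with no filter (-0.62, edgeR adjusted p = 0.00124). Rmrp was not called with total library counts (-0.61) or the strand-blind count (-0.30), and ranged from -0.70 to -0.56 with 1 mouse left out. Rpph1 was called by DESeq2 (-0.78) and with no filter (-0.77, adjusted p = 0.00106), and also without VDD1 (-0.91, adjusted p = 0.0377, 233 genes passing), and ranged from -0.95 to -0.61 with 1 mouse left out. Neat1 turned to higher without VDD1 (0.27) and without VDS2 (0.20), and was -0.40 at the other end, without VDS1. The interaction was fitted in 1 form only.

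The number of DEGs between the diets was 5, and it was 253 with DESeq2, 252 with voom, 17 with edgeR's newer form, 70 with no filter, 21 with the set as covariate, 536 in the 7 and 0 in the 5 mice, 2 with the set as covariate and without VDS6 (chosen after seeing the data), and 0 to 260 (without VDD1) with 1 mouse left out. Of 473 genes at an unadjusted p-value under 0.05 in the 5 mice, edgeR passed none. Between the sets 306 genes passed, 581 with DESeq2, 555 with no filter and 143 to 498 with 1 mouse left out. The partner lists had 0 genes called, and 1 (Srrm2) with voom and in the 7 mice. Of 6 correlations called, 0 were called without the 2 farthest mice and 3 without VDS6 (chosen after seeing the data), while total library counts kept these 6 and added Malat1 and Neat1 (r = 0.652, permutation test, adjusted p = 0.0456). Malat1 and Rmrp had r = 0.0122 without VDD3 and VDD4, against -0.125 over 12 mice. The causes were not tested.

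With the replicate number as a block, 17 DEGs were found and no call on the 6 RNAs changed. Mice of the same number did not deviate together (correlation over genes -0.0762 to 0.103 for the 6 pairs, 0 of 6 VDD-F1 mice closest to their own number), so the numbers do not pair the mice. Terc, with 18 to 128 counts, is the RNA whose precision depth limits most.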
